A study of Mus musculus with 9 samples.

Results

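The genes of ribosome biogenesis and RNA polymerase I described here are those listed as mRNA whose symbol begins with Nop, Utp, Rrp, Nol, Noc or Bop and a digit, or with Polr1, plus Mdn1, Fbl, Ncl, Npm1, Dkc1, Gar1, Nhp2 and Ebna1bp2. The symbol rule found 53 members among 18984 listed genes. The rule itself uses symbols and no measured value. Ribosomes are assembled in the nucleolus, where RNA polymerase I transcribes the precursor of the 18S, 5.8S and 28S ribosomal RNAs. Small nucleolar ribonucleoproteins modify that precursor, a large particle called the small-subunit processome folds and cuts the 18S part, and a separate line of factors matures the 60S subunit. In most tissues this work follows growth, proliferation and activation of cells, and MYC is a known activator of many of its genes.

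Levels are FPKM, fragments mapped to a gene scaled for transcript length and for all mapped fragments of the library, so levels of different genes can be set side by side per length. The samples are lung tissue of C57BL/6 mice taken 24 hours after intratracheal inoculation with hyphal fragments of Aspergillus fumigatus (the filamentous growth form, called hyphae here), with its conidia (the spores that are inhaled) or with normal saline (control). There are 3 libraries per group. Whether each library came from its own mouse is not stated, so the p-values may reflect no more than technical spread.

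A gene was tested if it reached 1 FPKM in at least 3 of the 9 libraries, which 13761 genes and 51 of the 53 members did. The members that were not tested are Utp14b, at 1.05, 0.61 and 0.62 FPKM after hyphae, 0.68, 0.79 and 0.56 after conidia and 1.06, 0.89 and 0.65 in control, and Nol4, which stayed at or under 0.05 FPKM in every library. Utp14b is a retrotransposed copy of Utp14a, and reads that match both copies could have been split between them. Differences are on the scale of log2(FPKM + 1), from 1 limma fit over all 9 libraries, and a gene is called at an adjusted p under 0.05 over all genes tested. The median of all genes tested lay at −0.37 in hyphae against control, at −0.29 in hyphae against conidia and at −0.07 in conidia against control. Values rescaled per library by median-of-ratios factors, which bring the median gene to about 0, are therefore given beside the deposited ones.

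Lung identity genes, 10 of 10 detected, summed to 56990 to 66630 FPKM after hyphae, 62810 to 78700 after conidia and 89200 to 132100 in control. As deposited 3 of the 10 were called higher in hyphae against control and 1 lower (7 and 1 rescaled), the lower one being the club cell gene Scgb1a1, at 33464.05, 32701.25 and 27860.45 FPKM after hyphae, 45216.46, 40998.05 and 60181.7 after conidia and 110354.64, 71320.53 and 59121.38 in control. The summed FPKM of all genes ranged from 492540 to 561250 per library. The 53 members together made up 0.172 to 0.188% of it after hyphae, 0.195 to 0.212% after conidia and 0.18 to 0.195% in control. The 20 neutrophil markers summed to 836 to 6454 FPKM after hyphae, 1074 to 3769 after conidia and 195 to 217 in control, and the 17 lymphocyte markers to 37.3 to 89.9 after hyphae, 47.3 to 195 after conidia and 134 to 230 in control. The 17 proliferation markers summed to 72.0 to 97.9 FPKM after hyphae, 91.3 to 113 after conidia and 113 to 122 in control. No marker on these lists was at 0 in all 9 libraries. Of the markers tested, 13 of 18 for neutrophils were called higher in hyphae against control (13 rescaled), 13 of 17 for lymphocytes lower (7 rescaled) and 11 of 16 for proliferation lower (2 lower and 2 higher rescaled). In that comparison 14.9% of all genes tested were called higher and 50.0% lower as deposited (29.5% and 30.0% rescaled). Of the endothelial markers, which summed to 2023 to 2141 FPKM after hyphae, 2281 to 2654 after conidia and 1609 to 2286 in control, 3 of 16 were called higher and 4 lower (6 and 3 rescaled). Neutrophil sums lay above all controls after conidia as well as after hyphae. The median lymphocyte sum was 52.6 FPKM after conidia and 69.3 after hyphae, against 213 in control. The part of these marker levels in the member values given below was not tested. In whole tissue, fewer cells of a type and less RNA per cell cannot be told apart.

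In control lungs Npm1, an abundant nucleolar chaperone of assembling ribosomes, stood highest of the members, at 150.07, 151.52 and 154.01 FPKM in control. It was followed by Nop53 (86.7 ± 6.86 FPKM, mean ± SD, n = 3), Rrp1 (66.5 ± 3.84), Polr1d (66.0 ± 2.68) and Nop10 (55.4 ± 3.97), of which Rrp1 and Polr1d did not differ beyond their spread. The lowest of the tested members were Mdn1 (1.63 ± 0.0529), Polr1e (1.94 ± 0.0458), Rrp12 (2.49 ± 0.161) and Utp20 (2.57 ± 0.281). The spread between replicates was widest after hyphae, with a median coefficient of variation of 12.1% over the tested members, against 7.9% after conidia and 6.14% in control. No library was uniformly high. Conidia replicate 1 was the highest of its group for 31 of the 51 tested members, and hyphae replicate 3 for 24 and control replicate 2 for 25 in theirs.

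Hyphae against control asked how these transcripts stood a day after the filamentous form was given. The members split. Utp4, Nol10, Nop58, Rrp1b, Nop53 and Nop16 rose, and were called on both scales, at 1.24 to 1.97 times the control mean as deposited and 1.66 to 2.66 times rescaled. Utp11, Nol12, Nol9, Utp6, Nol8, Dkc1, Bop1, Rrp7a, Rrp36, Nop10, Nop56 and Polr1e fell and were called on both scales, at 0.343 to 0.602 times the control mean as deposited and 0.456 to 0.798 times rescaled. As deposited, 33 of 51 members were called, 6 higher (11.8%) and 27 lower (52.9%), where 64.9% of all genes tested were called, 14.9% higher and 50.0% lower. Rescaled, 29 members were called, 17 higher (33.3%) and 12 lower (23.5%), where 59.5% of all genes were called, 29.5% higher and 30.0% lower. The members' shares thus lay near those of all genes on both scales. Their median difference was −0.36 as deposited, where all genes had −0.37, and 0.02 rescaled, where all genes had −0.01.

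**Figure D1:**
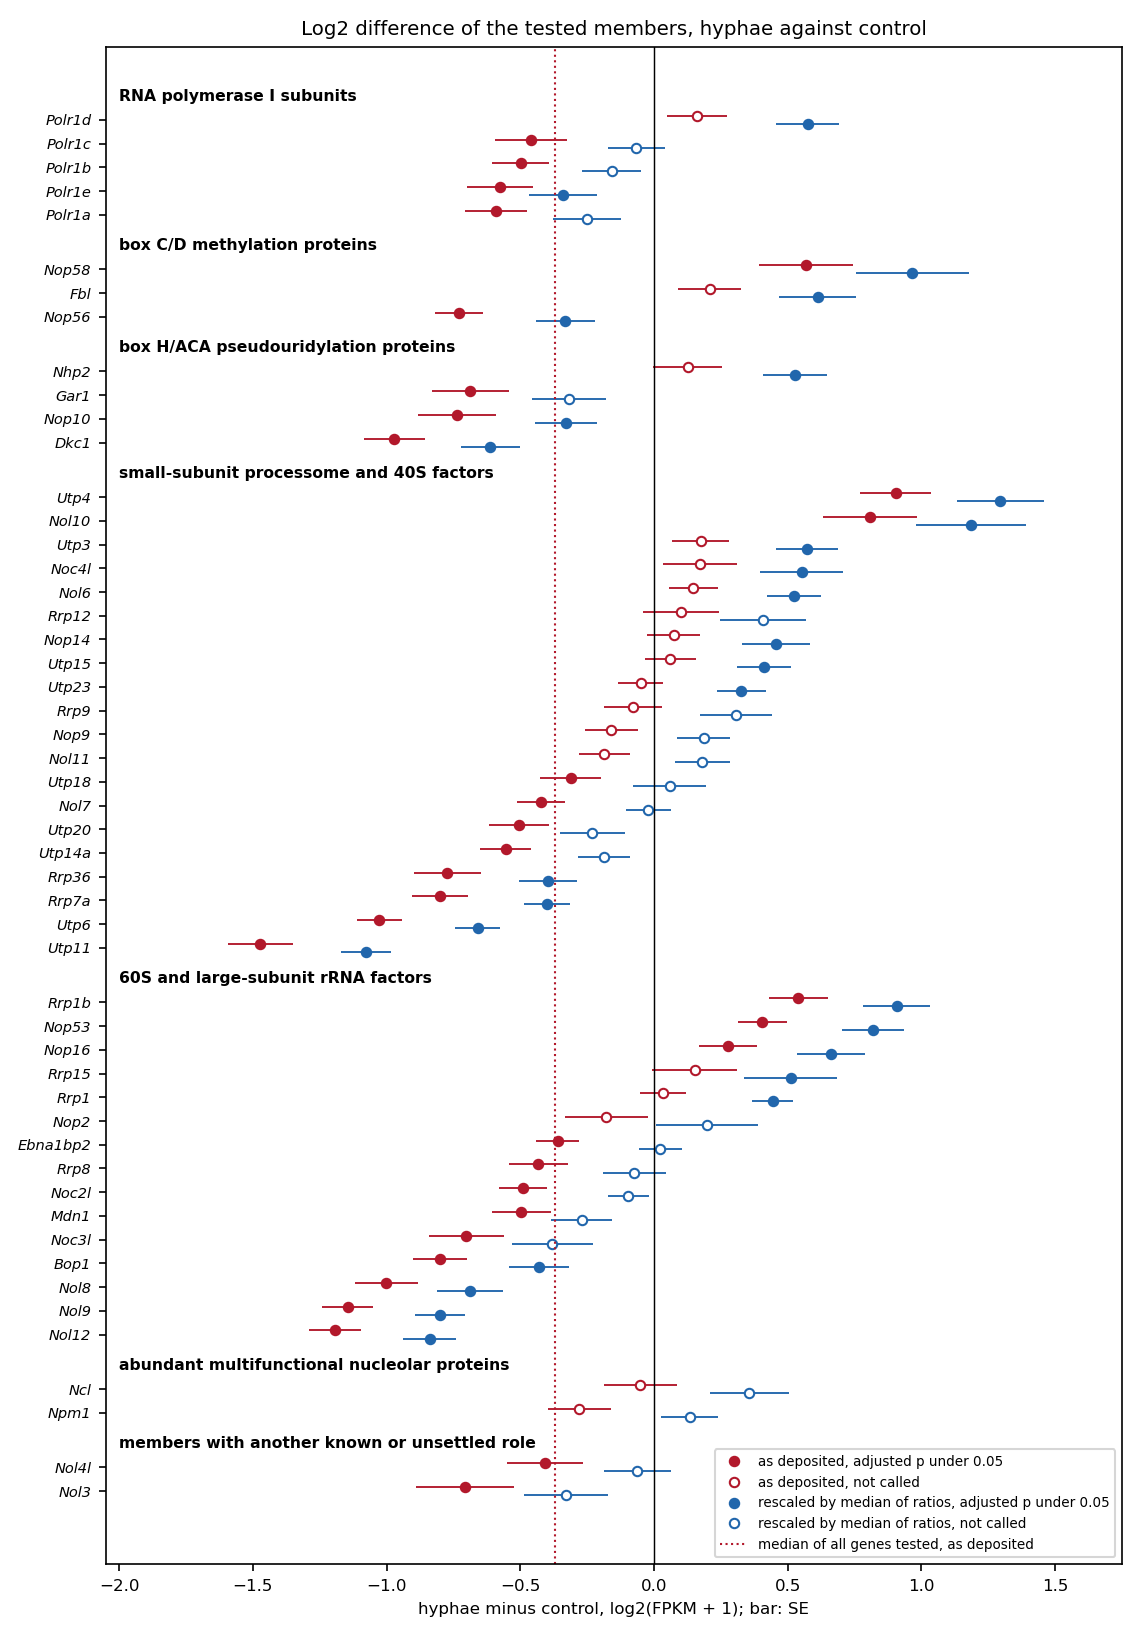
Log2 difference of hyphae minus control for each of the 51 tested members, by role (x axis, log2(FPKM + 1) with SE; red as deposited, blue rescaled; filled points have an adjusted p under 0.05; dotted line, median of all genes tested as deposited). Utp4 lies highest, at 0.90 as deposited and 1.29 rescaled, and Utp11 lowest, at −1.47 and −1.08. Within the RNA polymerase I, box C/D, box H/ACA, processome and 60S groups, points of each scale lie on both sides of 0.

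The start regions of the members that moved most were examined for short motifs. RefSeq promoters on GRCm38.p6, from 250 bases before to 50 after a start, were at hand for 42 of the 53 members. Those of the 2 largest rises and the 2 largest falls among these 42 are printed 5′ to 3′ on the gene's strand, with the letters of CACGTG (the E-box that MYC and MAX bind), CCGGAAGT (bound by ETS factors) and CTCGCGAG (the core of a palindrome found in promoters of housekeeping genes) in capitals. CCGGAAGT on the opposite strand reads ACTTCCGG, and the motifs did not overlap each other.
Utp4 (GRCm38.p6 chr8:106893390-106893689, plus strand): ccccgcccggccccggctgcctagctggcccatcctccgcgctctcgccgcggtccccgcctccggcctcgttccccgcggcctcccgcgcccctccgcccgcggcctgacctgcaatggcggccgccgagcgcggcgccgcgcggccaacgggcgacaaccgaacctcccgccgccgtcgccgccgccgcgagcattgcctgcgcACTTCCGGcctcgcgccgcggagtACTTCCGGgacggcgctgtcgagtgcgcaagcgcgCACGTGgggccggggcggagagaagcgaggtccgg
Nol10 (GRCm38.p6 chr12:17348243-17348542, plus strand): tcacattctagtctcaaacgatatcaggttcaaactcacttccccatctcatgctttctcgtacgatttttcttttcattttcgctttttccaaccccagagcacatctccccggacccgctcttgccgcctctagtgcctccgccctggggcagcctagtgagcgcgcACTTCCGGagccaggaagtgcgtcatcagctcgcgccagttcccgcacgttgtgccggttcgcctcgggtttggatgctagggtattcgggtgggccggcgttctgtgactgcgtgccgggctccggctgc
Nol12 (GRCm38.p6 chr15:78934683-78934982, plus strand): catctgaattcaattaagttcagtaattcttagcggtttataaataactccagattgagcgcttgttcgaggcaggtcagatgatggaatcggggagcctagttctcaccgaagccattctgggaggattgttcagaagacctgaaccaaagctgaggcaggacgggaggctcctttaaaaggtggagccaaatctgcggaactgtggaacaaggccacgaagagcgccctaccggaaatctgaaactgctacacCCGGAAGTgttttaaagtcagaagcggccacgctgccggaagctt
Nol9 (GRCm38.p6 chr4:152039071-152039370, plus strand): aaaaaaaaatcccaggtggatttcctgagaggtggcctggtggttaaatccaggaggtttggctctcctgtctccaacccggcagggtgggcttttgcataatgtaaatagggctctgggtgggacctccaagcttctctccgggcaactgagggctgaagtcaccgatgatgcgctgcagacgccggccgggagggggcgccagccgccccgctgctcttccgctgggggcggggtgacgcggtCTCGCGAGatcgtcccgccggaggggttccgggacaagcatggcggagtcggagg
Utp4 holds 2 copies of CCGGAAGT, read on the opposite strand, and 1 CACGTG that begins at base 16 after its start. Nol10, which rose, and Nol12, which fell, both hold 1 CCGGAAGT, on opposite strands. The palindrome in Nol9 begins 5 bases before the start. The same copy begins 22 bases before its other listed start, whose window overlaps the one printed. Over all members with a promoter, both strands searched, CACGTG stood in 8 of 42 (19.0%), CCGGAAGT in 11 (26.2%) and CTCGCGAG in 1 (2.38%), and over all genes in the table in 8.09%, 4.31% and 1.04%. The member promoters were richer in G and C, with a median of 59.0% against 52.7% for all promoters, and no test was made of these shares. CACGTG stood in the promoters of Utp4, which rose, of Rrp7a, Utp18, Utp20 and Mdn1, which were called lower as deposited, and of Nol11, Nop2 and the untested Utp14b. A match of letters is a description and does not show a bound site.

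Of the 5 members that are subunits of RNA polymerase I, 4 fell after hyphae as deposited, and rescaled 1 was called lower and 1 higher. Subunits with other symbols are given among the non-members below. Of all genes tested, 50.0% were called lower and 14.9% higher as deposited, and 30.0% lower and 29.5% higher rescaled. Polr1a, the largest catalytic subunit, had 3.83, 3.7 and 3.23 FPKM in the hyphae libraries, 6.75, 5.18 and 5.89 FPKM in the conidia libraries and 5.86, 5.56 and 6.28 FPKM in the controls. All 3 hyphae libraries lay under all 6 others on both scales. Polr1a was called lower as deposited (log2 difference −0.59, SE 0.12, adjusted p = 0.00198), a call that was lost after rescaling (−0.25, adjusted p = 0.117). Polr1b, which forms the active centre with it, was called as deposited (log2 difference −0.50, SE 0.11, adjusted p = 0.00301) and not rescaled (−0.16, adjusted p = 0.24). Polr1e, a subunit that takes part in initiation and elongation, had 1.15, 0.76 and 1.03 FPKM in the hyphae libraries, 2.54, 1.94 and 2 FPKM in the conidia libraries and 1.98, 1.89 and 1.95 FPKM in the controls. It was the only one of these 5 called lower on both scales (log2 difference −0.57, SE 0.12, adjusted p = 0.0032; rescaled −0.34, adjusted p = 0.0445). Its hyphae values lie near 1 FPKM, where the added 1 understates the change. Polr1c and Polr1d form a pair that RNA polymerase III also uses, and their differences had opposite signs on both scales. Polr1c stood at 17.44, 12.9 and 12.8 FPKM after hyphae and 19.05, 20.51 and 20.3 in control (log2 difference −0.46, SE 0.13, adjusted p = 0.0144), a call that was lost after rescaling (−0.07, adjusted p = 0.616) and without hyphae replicate 2 or 3 (highest adjusted p = 0.0562). Polr1d, the most abundant of the 5, had 70.46, 66.22 and 86.62 FPKM in the hyphae libraries, 60.54, 68.23 and 66.51 FPKM in the conidia libraries and 68.73, 63.37 and 65.91 FPKM in the controls. Its groups overlapped as deposited (log2 difference 0.16, SE 0.11, adjusted p = 0.23), and after rescaling it was called higher (0.57, adjusted p = 0.00294).

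The box C/D proteins, which place 2′-O-methyl groups on ribosomal RNA, moved apart. Nop58, a core scaffold protein of the particle, had 20.48, 23.3 and 28.7 FPKM in the hyphae libraries, 25.45, 16.74 and 18.79 FPKM in the conidia libraries and 16.16, 17.87 and 13.69 FPKM in the controls. Its hyphae libraries lay above all controls but overlapped the conidia libraries, and it rose (log2 difference 0.57, SE 0.18, adjusted p = 0.0186; rescaled 0.97, adjusted p = 0.00424). The call as deposited was lost without control replicate 3 or hyphae replicate 3 (highest adjusted p = 0.0676). Nop56, the related scaffold protein that pairs with Nop58, had 15.18, 14.55 and 17.64 FPKM in the hyphae libraries, 28.5, 26.4 and 25.92 FPKM in the conidia libraries and 27.44, 26.99 and 25.82 FPKM in the controls. Every hyphae library lay under every other library, and Nop56 fell to 0.590 times the control mean (log2 difference −0.73, SE 0.09, adjusted p = 0.000211; rescaled −0.33, adjusted p = 0.0281). Fbl, the methyltransferase fibrillarin, had 35.79, 37.55 and 35.64 FPKM in the hyphae libraries, 42.57, 33.45 and 32.22 FPKM in the conidia libraries and 32.65, 28.32 and 33.2 FPKM in the controls. It did not pass as deposited (log2 difference 0.21, SE 0.12, adjusted p = 0.146) and was called higher after rescaling (0.61, adjusted p = 0.00586).

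A ratio of FPKM within a library does not depend on how libraries are scaled. The ratio of Nop58 to Nop56 was 1.35, 1.60 and 1.63 after hyphae, 0.893, 0.634 and 0.725 after conidia and 0.589, 0.662 and 0.530 in control. In hyphae lungs Nop58 was thus above its partner in each library, and in the other 6 libraries below it. The ratio of Nop56 to Fbl was 0.424, 0.387 and 0.495 after hyphae and 0.840, 0.953 and 0.778 in control, without overlap, whereas that of Nop58 to Fbl overlapped, at 0.572, 0.621 and 0.805 after hyphae and 0.495, 0.631 and 0.412 in control. These and the other ratios below were chosen after the values had been seen and carry no test. Nop56 and Nop58 also host snoRNA genes, none of which overlaps more than 2.44% of the host's annotated exons.

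**Figure D2:**
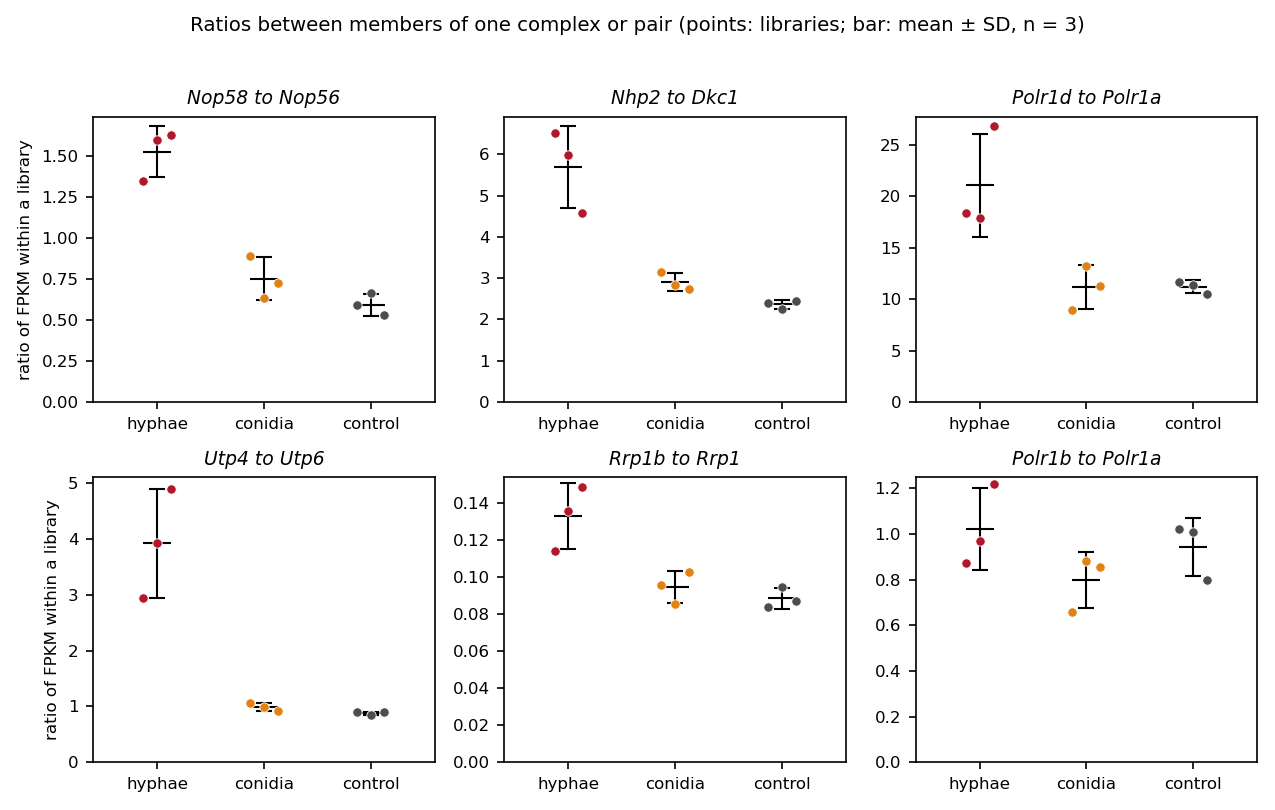
Ratio of FPKM between members of a complex or pair within each library (y axis, from 0; points are libraries, bars the mean ± SD of 3). The ratio of Nop58 to Nop56 averages 1.53 after hyphae and 0.594 in control, and that of Utp4 to Utp6 averages 3.92 after hyphae and 0.882 in control, whereas Polr1b to Polr1a overlaps between all groups.

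The box H/ACA proteins convert uridines of ribosomal RNA to pseudouridine, and 3 of their 4 genes fell as deposited (2 rescaled). Of all genes tested, 50.0% were called lower as deposited and 30.0% rescaled. Dkc1, the pseudouridine synthase dyskerin, which also stabilises telomerase RNA, had 4.72, 3.86 and 5.27 FPKM in the hyphae libraries, 8.88, 9.72 and 8.31 FPKM in the conidia libraries and 10.05, 9.61 and 10.2 FPKM in the controls. The hyphae libraries lay apart, at 0.464 times the control mean (log2 difference −0.97, SE 0.11, adjusted p = 0.000161; rescaled −0.61, adjusted p = 0.00162). Nop10, a small protein that binds dyskerin, had 41.39, 27 and 31.49 FPKM in the hyphae libraries, 50.63, 57.45 and 55.73 FPKM in the conidia libraries and 59.09, 55.77 and 51.18 FPKM in the controls. It fell on both scales, the rescaled difference being smaller (log2 difference −0.74, SE 0.14, adjusted p = 0.00208; rescaled −0.33, adjusted p = 0.0347). Gar1, at 7.15, 4.89 and 6.81 FPKM after hyphae and 10.29, 12.33 and 9.4 in control, was called as deposited only (log2 difference −0.69, SE 0.14, adjusted p = 0.00287; rescaled −0.32, adjusted p = 0.0776). Nhp2, the RNA-binding member of the set, stood at 30.71, 23.04 and 24.15 FPKM after hyphae and 24.13, 21.66 and 24.9 in control, and it was called only after rescaling, as higher (log2 difference 0.13, SE 0.13, adjusted p = 0.412; rescaled 0.53, adjusted p = 0.00482). The ratio of Nhp2 to Dkc1 was 6.51, 5.97 and 4.58 after hyphae, 3.15, 2.83 and 2.74 after conidia and 2.40, 2.25 and 2.44 in control, with no overlap between any of the 3 groups.

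The small-subunit processome and 40S factors, the largest role group with 20 tested genes, held both the largest rise and the largest fall. As deposited 2 (10%) rose and 8 (40%) fell, where 14.9% of all genes tested were called higher and 50.0% lower. Rescaled 8 (40%) were higher and 4 (20%) lower, where all genes gave 29.5% and 30.0%. Utp4, a WD-repeat protein of the subcomplex that joins nascent pre-ribosomal RNA, had 17, 20.84 and 24.76 FPKM in the hyphae libraries, 12.29, 10.88 and 10.28 FPKM in the conidia libraries and 10.86, 10.59 and 10.26 FPKM in the controls. It stood at 1.97 times the control mean after hyphae, and each hyphae library lay above all others (log2 difference 0.90, SE 0.13, adjusted p = 0.000421; rescaled 1.29, adjusted p = 0.000258). Nol10, the counterpart of yeast Enp2, had 9.51, 13.1 and 16.18 FPKM in the hyphae libraries, 8.45, 6.84 and 7.34 FPKM in the conidia libraries and 7.51, 7.01 and 5.98 FPKM in the controls. Here too the hyphae libraries lay above the other 6, with the widest spread of the tested members in that group, a coefficient of variation of 25.8% (log2 difference 0.81, SE 0.17, adjusted p = 0.00335; rescaled 1.19, adjusted p = 0.00133). For both genes hyphae replicate 1 was the lowest and replicate 3 the highest of the group. The neutrophil markers summed to 836, 2235 and 6454 FPKM in hyphae replicates 1, 2 and 3, and to 1074 to 3769 FPKM in the conidia libraries. Their part in the spread was not tested.

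Utp11, which in control lungs was with Rrp7a the most abundant of this group, the pair not differing beyond their spread, fell furthest of the tested members. It had 13.95, 10.89 and 10.64 FPKM in the hyphae libraries, 29.02, 33.58 and 32.79 FPKM in the conidia libraries and 35.22, 37.26 and 30.87 FPKM in the controls. The hyphae mean was 0.343 times the control mean (log2 difference −1.47, SE 0.12, adjusted p = 4.07e-05; rescaled −1.08, adjusted p = 5.85e-05), and the hyphae libraries lay far under the other 6. Utp6, a subunit of the UtpB subcomplex, had 5.78, 5.3 and 5.06 FPKM in the hyphae libraries, 11.58, 11.07 and 11.28 FPKM in the conidia libraries and 12.11, 12.43 and 11.45 FPKM in the controls. It fell to 0.448 times the control mean (log2 difference −1.03, SE 0.09, adjusted p = 4.02e-05; rescaled −0.66, adjusted p = 0.000256). Rrp7a and Rrp36 also fell on both scales, by log2 differences of −0.80 and −0.77 as deposited and −0.40 and −0.40 rescaled. Within a library, Utp4 was 2.94, 3.93 and 4.89 times as high as Utp6 after hyphae, 1.06, 0.983 and 0.911 times after conidia and 0.897, 0.852 and 0.896 times in control.

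The remaining processome genes moved less as deposited. Utp14a, Utp20, Nol7 and Utp18 were called lower as deposited (log2 differences −0.56, −0.51, −0.42 and −0.31) and not after rescaling, where Utp18 stood at 0.06 and the others at or under −0.02. The call of Utp18 was also lost in 5 of the 9 fits that left out a library (highest adjusted p = 0.132). Utp3, Noc4l, Nol6, Nop14, Utp15 and Utp23 had no call as deposited, with log2 differences from −0.05 to 0.17, and were called higher rescaled, from 0.33 to 0.57. Nol6 belongs to a complex recruited to the processome, and Utp15 sits beside Utp4 in the same subcomplex. Utp15 had 5.2, 5.46 and 5.17 FPKM after hyphae and 5.48, 4.87 and 4.74 in control, so the ratio of Utp4 to Utp15 was 3.27, 3.82 and 4.79 after hyphae and 1.98, 2.17 and 2.16 in control. Rrp12, Rrp9, Nop9 and Nol11 were called on neither scale. Of these, 29.9% of the annotated exons of Nop9 overlap the gene Cideb on the other strand, and no source used here says that reads were counted by strand, so their reads cannot be told apart.

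**Figure D3:**
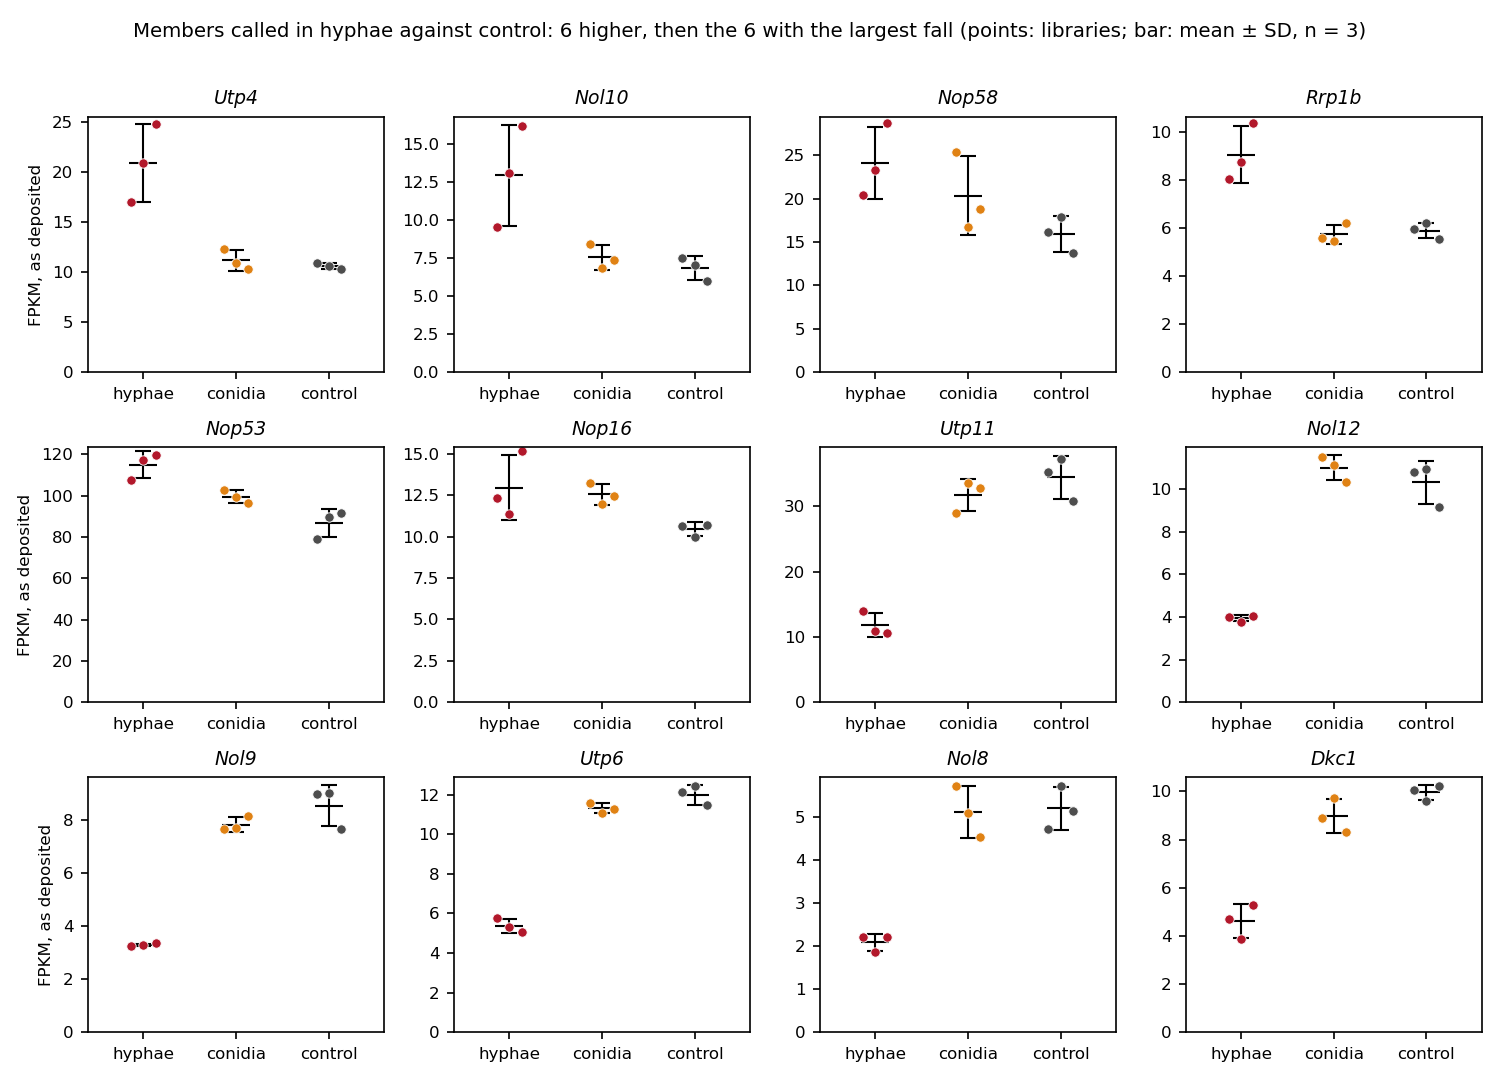
FPKM as deposited (y axis, from 0) of the 6 members called higher and the 6 with the largest fall in hyphae against control; points are libraries and bars the mean ± SD of 3. In every panel the hyphae libraries lie on 1 side of the controls, and the conidia libraries overlap the controls except for Nop53 and Nop16, where they lie above.

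Of 15 factors of the 60S subunit and its ribosomal RNA, 3 (20%) rose and 9 (60%) fell as deposited. All genes tested gave 14.9% higher and 50.0% lower. Rescaled, 5 (33.3%) were higher and 4 (26.7%) lower, where all genes gave 29.5% and 30.0%. Nop53, which in yeast brings the RNA exosome to the maturing particle, had 107.81, 117.33 and 119.96 FPKM in the hyphae libraries, 102.9, 99.32 and 96.56 FPKM in the conidia libraries and 78.9, 89.63 and 91.66 FPKM in the controls. The 3 groups did not overlap, and Nop53 rose over control (log2 difference 0.41, SE 0.09, adjusted p = 0.00432; rescaled 0.82, adjusted p = 0.000483). Rrp1b, a paralog of Rrp1, had 8.02, 8.74 and 10.36 FPKM in the hyphae libraries, 5.57, 5.45 and 6.18 FPKM in the conidia libraries and 5.93, 6.18 and 5.54 FPKM in the controls. It rose to 1.54 times the control mean (log2 difference 0.54, SE 0.11, adjusted p = 0.00257; rescaled 0.91, adjusted p = 0.000421). Rrp1 itself, the more abundant of the pair per length in each library, stood at 70.65, 64.09 and 69.37 FPKM after hyphae and 70.82, 65.18 and 63.49 in control and was called only after rescaling (log2 difference 0.03, SE 0.09, adjusted p = 0.75; rescaled 0.44, adjusted p = 0.00131). The ratio of Rrp1b to Rrp1 was 0.114, 0.136 and 0.149 after hyphae and 0.0837, 0.0948 and 0.0873 in control. Nop16 had 12.33, 11.4 and 15.16 FPKM in the hyphae libraries, 13.26, 11.98 and 12.44 FPKM in the conidia libraries and 10.64, 9.98 and 10.74 FPKM in the controls. Its call was the weakest of the 6 rises (log2 difference 0.28, SE 0.11, adjusted p = 0.0496; rescaled 0.66, adjusted p = 0.00216), and as deposited it was lost in 8 of the 9 fits that left out a library (highest adjusted p = 0.156).

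The falls among the 60S factors were larger. Nol12, related to a yeast exonuclease that trims ribosomal RNA, had 3.99, 3.77 and 4.03 FPKM in the hyphae libraries, 11.48, 11.14 and 10.34 FPKM in the conidia libraries and 10.8, 10.95 and 9.16 FPKM in the controls. The hyphae libraries agreed closely and lay at 0.381 times the control mean (log2 difference −1.19, SE 0.10, adjusted p = 3.93e-05; rescaled −0.84, adjusted p = 0.000198). Nol9, a polynucleotide kinase that acts on the cut between the 5.8S and 28S parts of the precursor, had 3.27, 3.29 and 3.35 FPKM in the hyphae libraries, 7.64, 7.68 and 8.16 FPKM in the conidia libraries and 8.96, 9 and 7.66 FPKM in the controls. Its hyphae values were the most uniform of all tested members, with a coefficient of variation of 1.26% (log2 difference −1.15, SE 0.10, adjusted p = 4.01e-05; rescaled −0.80, adjusted p = 0.000191). Nol8 had 2.21, 1.87 and 2.22 FPKM in the hyphae libraries, 5.74, 5.1 and 4.54 FPKM in the conidia libraries and 4.74, 5.74 and 5.15 FPKM in the controls. It fell to 0.403 times the control mean (log2 difference −1.001, SE 0.12, adjusted p = 0.000166; rescaled −0.69, adjusted p = 0.00151). Bop1, a subunit of the complex with Pes1 and Wdr12 that processes the 28S part, had 6.45, 6.28 and 5.45 FPKM in the hyphae libraries, 14.33, 12.27 and 11.74 FPKM in the conidia libraries and 11.13, 11.42 and 11.28 FPKM in the controls. It fell against both other groups, while the conidia libraries lay above all 3 controls (log2 difference −0.80, SE 0.10, adjusted p = 0.000223; rescaled −0.43, adjusted p = 0.00952). Its partners Wdr12 (−0.93) and Pes1 (−0.65) were also called lower as deposited, and rescaled Wdr12 kept the call (−0.64) and Pes1 did not (−0.26, adjusted p = 0.0811).

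Another 5 of the 60S factors were called lower as deposited and not rescaled. Noc3l, Mdn1, Noc2l, Rrp8 and Ebna1bp2 had log2 differences of −0.70, −0.50, −0.49, −0.43 and −0.36, and rescaled −0.38, −0.27, −0.10, −0.07 and 0.02. Mdn1, the very large ATPase that strips assembly factors from the pre-60S particle, was under 1 FPKM in every hyphae library, at 0.74, 0.89 and 0.97, and passed the filter through the other groups. Noc2l shares 20.9% of its annotated exons with Samd11 on the other strand. Rrp15 was called higher only after rescaling (0.51, adjusted p = 0.0306), and Nop2, a methyltransferase of 28S ribosomal RNA, on neither scale (log2 difference −0.18, SE 0.15, adjusted p = 0.336).

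Ncl and Npm1, the abundant nucleolar proteins nucleolin and nucleophosmin, were not called in hyphae against control. Npm1 had 149.91, 111.96 and 116 FPKM in the hyphae libraries, 177.47, 166.58 and 159.77 FPKM in the conidia libraries and 150.07, 151.52 and 154.01 FPKM in the controls. All hyphae values lay below the lowest control value, hyphae replicate 1 only narrowly, and the difference did not pass (log2 difference −0.28, SE 0.12, adjusted p = 0.0632; rescaled 0.13, adjusted p = 0.307). Npm1 is known for processed pseudogenes in the genome, which can share its reads. Ncl had 45.97, 38.31 and 35.8 FPKM in the hyphae libraries, 60.45, 43.51 and 49.66 FPKM in the conidia libraries and 39.76, 41.15 and 42.99 FPKM in the controls. Its hyphae libraries lay on both sides of the controls (log2 difference −0.05, SE 0.14, adjusted p = 0.753; rescaled 0.36, adjusted p = 0.0641). The ratio of Npm1 to Ncl was 3.26, 2.92 and 3.24 after hyphae and 3.77, 3.68 and 3.58 in control.

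Of the members whose symbol fits but whose known or unsettled role lies elsewhere, Nol3 encodes ARC, a repressor of apoptosis, and had 8.97, 6.26 and 8.69 FPKM in the hyphae libraries, 8.44, 13.78 and 9.64 FPKM in the conidia libraries and 13.89, 12.35 and 14.34 FPKM in the controls. It was called lower as deposited (log2 difference −0.71, SE 0.18, adjusted p = 0.00791) and not after rescaling (−0.33, adjusted p = 0.099), and 48.2% of its annotated exons overlap the gene 4931428F04Rik on the other strand. Nol4l was called lower as deposited (log2 difference −0.41, SE 0.14, adjusted p = 0.0302) and not rescaled (−0.06, adjusted p = 0.697), and the call was also lost without control replicate 2 or hyphae replicate 2 or 3 (highest adjusted p = 0.115). Without these genes and Nol4, 6 of 49 members rose and 25 fell as deposited.

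Conidia against control asked the same of the spores, and no member was called. Limma called 0 of 51 members on either scale, where 0.690% of all genes were called as deposited (0.596% higher, 0.0945% lower) and 0.342% rescaled (0.298% higher, 0.0436% lower). Before adjustment, limma's threshold of 0.05 was met by 0 members as deposited and by 3 rescaled, which were Nop16, Nop53 and Ncl. Of all genes 21.1% met it on each scale. Over all genes the calls as deposited turned on single libraries, with 0 genes called without any 1 of the controls or without conidia replicate 3, and 657 higher and 878 lower without conidia replicate 2. The members called stayed at 0 in all 9 of these fits. Log2 differences ran from −0.35 in Nol3 to 0.32 in Nop58, with SEs of 0.08 to 0.18, and the median of the members was 0.01 where that of all genes was −0.07. As deposited the groups did not overlap for 8 members, which were 6 higher (Ncl, Nop16, Nop53, Bop1, Npm1 and Nop2) and 2 lower (Rrp7a and Nol4l). All genes tested gave 12.0% higher and 17.8% lower by that measure. Rescaled, 10 members were higher without overlap, the same 6 with Noc4l, Utp23, Utp4 and Ebna1bp2, and 0 lower, where all genes gave 15.3% higher and 14.5% lower.

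Ncl had the second largest positive difference after conidia (log2 difference 0.29, SE 0.14, adjusted p = 0.251), and its highest value was conidia replicate 1. Nop58 stood at 25.45, 16.74 and 18.79 FPKM after conidia and 16.16, 17.87 and 13.69 in control, again with replicate 1 highest, and the groups overlapped (log2 difference 0.32, SE 0.18, adjusted p = 0.315). Nop53 was 1.15 times the control mean (log2 difference 0.20, SE 0.09, adjusted p = 0.252), and Fbl 1.15 times (log2 difference 0.19, SE 0.12, adjusted p = 0.37). Utp11 and Nol12, which fell most after hyphae, had log2 differences of −0.11 and 0.09 after conidia (adjusted p = 0.612 and 0.617). A p that misses the threshold does not show that conidia left these genes as they were.

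Hyphae against conidia compared the growth forms directly. Utp4, Nol10 and Rrp1b were higher after hyphae on both scales, and 14 members were lower on both, led by Utp11, Nol12, Nol9, Nol8, Bop1 and Utp6. As deposited 29 of 51 members were called, 3 higher (5.88%) and 26 lower (51.0%), where 55.2% of all genes were called, 12.7% higher and 42.5% lower. Rescaled, 26 members were called, 12 higher (23.5%) and 14 lower (27.5%), where 51.0% of all genes were called, 25.8% higher and 25.2% lower. Utp4 averaged 20.9 ± 3.88 FPKM after hyphae and 11.2 ± 1.03 after conidia (log2 difference 0.84, SE 0.13, adjusted p = 0.000869; rescaled 1.16). Nol10 had a log2 difference of 0.68 (SE 0.17, adjusted p = 0.00988; rescaled 0.99), and Rrp1b of 0.57 (SE 0.11, adjusted p = 0.0025; rescaled 0.87).

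Among the falls, Nol12 averaged 3.93 ± 0.140 FPKM after hyphae and 11.0 ± 0.585 after conidia (log2 difference −1.28, SE 0.10, adjusted p = 4.62e-05; rescaled −0.997). Utp11 averaged 11.8 ± 1.84 FPKM after hyphae and 31.8 ± 2.44 after conidia (log2 difference −1.36, SE 0.12, adjusted p = 7.3e-05; rescaled −1.04). Bop1 averaged 6.06 ± 0.535 after hyphae and 12.8 ± 1.37 after conidia (log2 difference −0.96, SE 0.10, adjusted p = 0.000138; rescaled −0.66), and Dkc1 had a log2 difference of −0.83 (rescaled −0.55). Npm1, not called against control, was lower than after conidia as deposited (log2 difference −0.42, SE 0.12, adjusted p = 0.0146), but not rescaled (−0.09, adjusted p = 0.523) and not without hyphae replicate 2 or 3 (highest adjusted p = 0.0593). Nop58 and Fbl differed little between the forms as deposited (0.25 and 0.02, adjusted p = 0.26 and 0.901), and rescaled Nop58 was called higher (0.57, adjusted p = 0.0489). Polr1b and Polr1c were called lower as deposited (−0.30 and −0.39), and each lost the call rescaled and in 5 and 6 of the 9 fits that left out a library (highest adjusted p = 0.127 and 0.12). Utp18 (−0.34) lost it rescaled and in 4 of those fits (highest adjusted p = 0.0944).

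Other genes of the pathway were read from 6 lists of non-members. In conidia against control none of their genes was called, where 0.690% of all genes were called as deposited and 0.342% rescaled. In hyphae against control, all genes tested gave 14.9% higher and 50.0% lower as deposited (29.5% and 30.0% rescaled). Of 21 tested genes for initiation, termination and other subunits of RNA polymerase I, shared ones included, 4 rose and 12 fell as deposited. Rescaled, 7 were higher and 5 lower. Of the unshared subunits in this list, Twistnb rose (0.53, rescaled 0.90). Cd3eap (−0.90, rescaled −0.57) and Znrd1 (−0.58, rescaled −0.17 and not called) fell. The largest falls there were Ttf1 (−1.52), the terminator protein of RNA polymerase I, Cavin1 (−1.09), which is also a caveola protein of endothelium, and Taf1c (−1.06), and the largest rises Taf1d (0.99), Top1 (0.98) and Tbp (0.68). Taf1c and Taf1d belong to the same promoter-selectivity complex and went opposite ways. Of 13 genes for snoRNP assembly, 2 rose and 9 fell (4 and 6 rescaled). Ruvbl2 (−1.85) and Ruvbl1 (−1.66), the paired ATPases that help load box C/D proteins, fell furthest with Znhit6 (−1.02), whereas Nufip1 (0.88) and Znhit3 (0.56) rose.

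Of 42 other processome and 40S genes, 9 rose and 14 fell as deposited (19 and 4 rescaled), and of 55 other 60S genes 17 rose and 20 fell (30 and 7 rescaled). The shares of all genes tested were 14.9% higher and 50.0% lower as deposited (29.5% and 30.0% rescaled). Riok3 (1.35), Dnttip2 (1.22) and the late 40S kinase Riok1 (1.09) rose most in the first of these lists, and Dhx37 (−1.27), Diexf (−1.12) and Trmt112 (−0.92) fell most. In the second, Zfp622 (1.38), Brix1 (0.93) and Gnl3 (0.86) rose most, and Ddx31 (−0.94), Wdr12 (−0.93) and Nvl (−0.86) fell most. The median of the 60S list was −0.03 as deposited and 0.38 rescaled, beside −0.37 and −0.01 over all genes. Of 17 genes for the RNA exosome and trimming, 3 rose and 10 fell (6 and 5 rescaled), with Exosc7 (−1.63), Exosc6 (−1.37) and Exosc5 (−1.11) lowest and Mphosph6 (0.45), C1d (0.45) and Dis3 (0.40) highest.

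In the MYC network 6 of 11 tested genes rose and 4 fell as deposited (7 and 4 rescaled). All genes tested gave 14.9% higher and 50.0% lower as deposited (29.5% and 30.0% rescaled). Myc had 24.23, 31.99 and 52.26 FPKM in the hyphae libraries, 19.96, 9.32 and 12.85 in the conidia libraries and 5.84, 3.52 and 5 in the controls. The 3 groups did not overlap, and Myc rose after hyphae (log2 difference 2.63, adjusted p = 0.000204, and rescaled 3.01, adjusted p = 0.000226). Its difference after conidia did not pass (1.34, adjusted p = 0.0865). Mxd1, an antagonist that competes with MYC for MAX, rose by 1.34 and Mycn by 1.02, and Mycl (−1.84), Mga (−1.11) and Mlx (−0.81) fell. Mxd1 also stood higher after conidia than in control, without a call (log2 difference 1.74, adjusted p = 0.0702). In hyphae against conidia it was not called (−0.39, adjusted p = 0.395). Rescaled, every gene named from these 6 lists kept its direction, and all but Pes1 and Znrd1 kept their call.

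**Figure D4:**
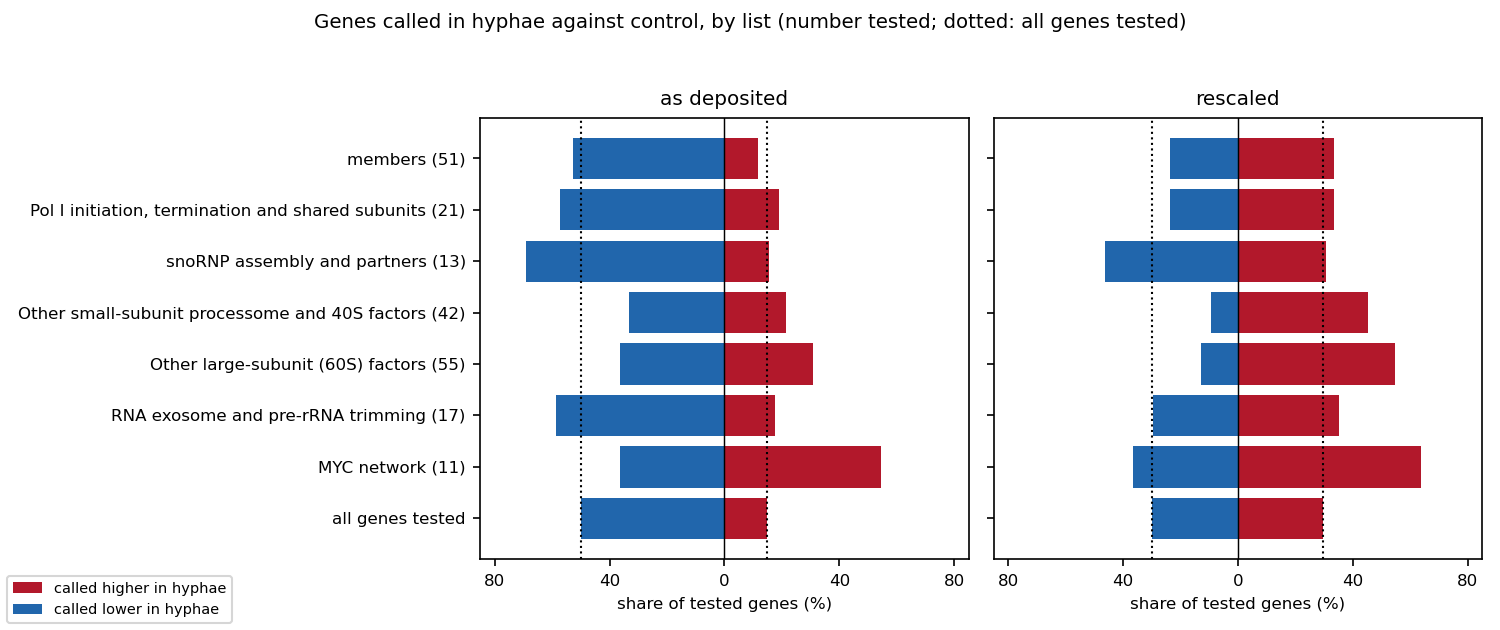
Share of tested genes called higher (red, to the right) and lower (blue, to the left) in hyphae against control, as deposited and rescaled, for the members, for 6 lists of other pathway genes and for all genes tested (number tested in brackets; x axis in %; dotted lines mark all genes tested). The members lie near the dotted lines, with 11.8% higher and 52.9% lower as deposited and 33.3% and 23.5% rescaled.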

How the data were processed

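Poly(A) RNA of the 9 lung libraries was sequenced on a BGISEQ platform, per the labels' protocols. The authors deposited 1 table per library with FPKM values to 2 decimals, per the file headers. The submitters' processing notes list HISAT, Bowtie2 and mm9 with no role for any of them, and no source used here names the tool behind the FPKM. The tables hold no counts and the low values showed no clear step, so depth per library is unknown and no counting intervals are given. FPKM moves with the few transcripts that take much of a library: Scgb1a1 alone took 5.40 to 6.74% after hyphae, 8.11 to 11.5% after conidia and 11.4 to 19.7% in control.

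Values were taken as log2(FPKM + 1) and fitted with limma 3.58.1 (trend, robust) in R 4.3.3, with jsonlite 2.0.0 to read labels, 1 term per group, two-sided tests and Benjamini-Hochberg adjustment over 13761 genes. Any member could be named. Library values are given for up to 6 called members per direction and for the most abundant of each role. Further members described beside them also have library values. Other lists name up to 3 called genes per direction, and Pes1, Twistnb, Cd3eap and Znrd1 besides. Members and lists were chosen with earlier results of these data known. Alternatives were rescaling, pseudocounts, filters, a replicate block and each library left out. The fit was tested on simulated data. GENCODE M21 served only to find overlapping genes. The promoter palindrome planned at full length was searched by its 8-base core.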

Additional observations from a re-analysis of the deposited data

How the results depend on the processing

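The scaling between libraries was the choice that moved most. Under median-of-ratios rescaling 17 members were higher and 12 lower in hyphae against control (median log2 difference 0.024), 12 higher and 14 lower in hyphae against conidia (median −0.041), and the median in conidia against control was 0.085. With every library at the same summed FPKM the medians were −0.288 for hyphae against control and 0.069 for conidia against control, and no count of members moved by over 1.5 times. Utp18 and Ebna1bp2, lower as deposited in hyphae against control, stood at 0.058 and 0.024 rescaled, and Utp23, not called as deposited (−0.05), was called higher at 0.327. The cause was not tested. Other pseudocounts, filters, a non-robust fit and a fit of only the 2 groups moved no count of members by over 1.5 times. Over all genes, dropping the filter left 34 higher and 9 lower in conidia against control, against 82 and 13, equal summed FPKM 168 and 15, rescaling 41 and 6, the replicate block 50 and 7, and the block with rescaling 9 and 1. Leaving out 1 library gave 4 to 6 members higher and 24 to 27 lower in hyphae against control (median −0.41 to −0.31), and 3 higher and 22 to 26 lower in hyphae against conidia (−0.37 to −0.32). It gave 0 members and medians of 0.00 to 0.05 in conidia against control. Of 33 calls in hyphae against control 28 held without each library in turn, and of 29 in hyphae against conidia 25. Leaving out Nol3, Nol4 and Nol4l was chosen after seeing the data and moved no count of members by over 1.5 times. Same-numbered libraries of different groups did not deviate together (correlations of −0.31 to 0.43, over 0.1 in 2 of 9 pairs), so the replicate number was not taken as a pairing. With it as a replicate block 5 members were higher and 26 lower in hyphae against control, 3 and 23 in hyphae against conidia and 0 in conidia against control. The block with rescaling gave 16 and 11 (median 0.024), 8 and 13 (median −0.041) and 0 with a median of 0.085. Low values limit Mdn1, Polr1e and the untested Utp14b and Nol4 most.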
